A study of Homo sapiens with 6 samples.

Results

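DDIT4 and 9 further genes of the integrated stress response were followed across RNA-seq of K562, a long-established leukemia line of human origin that has features of red cell precursors. All 10 genes had a row in each of the 3 deposited tables, which together name 17066 distinct symbols. DDIT4 was selected on its large decrease in CEBPA in these same data, so its values are a description of what chose it. ATF4, DDIT3, ATF3, TRIB3, CHAC1, ASNS, SESN2, PPP1R15A and XBP1 were taken as known members of the response, with earlier results of these data in view. The 6 samples were 2 replicates each of CTR, an empty vector line, CEBPA, which carries Tet-inducible wild-type C/EBPα, and P30, which carries the Tet-inducible p30 isoform. The transgenes were introduced with a PiggyBac transposon, C/EBPα is not expressed by the parental cells, and every sample had received 200 ng/ml doxycycline for 48 h. Each line was made separately and no sample without doxycycline was analysed here, so an effect of a transgene and a difference between lines cannot be told apart. For each gene the tables give 1 FPKM value for a group, with both replicates pooled, which is the number of fragments scaled to transcript length and to all mapped fragments. They carry no replicate error and no read count, and none of the differences given here could be tested from them. The paper tested the same pairs of groups with Cuffdiff on biological duplicates, and its calls were not used here.

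The integrated stress response is a shared pathway by which cells answer lack of amino acids, lack of heme, viral RNA or unfolded protein in the endoplasmic reticulum (ER). Kinases that sense these states phosphorylate the initiation factor eIF2, general translation falls, and the mRNA of the transcription factor ATF4 is translated more. ATF4 then switches on genes of amino acid supply and of feedback control, often through a composite element that binds a dimer of an ATF and a C/EBP protein. In red cell precursors the heme-sensing kinase of this pathway is known for matching globin synthesis to heme.

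The promoters of the members are shown first, because both ATF4 and C/EBPα act on DNA through such sites. Windows from 250 bases before to 50 bases after each start were taken from RefSeq (table on GRCh38.p14), which held 17 windows for the 10 genes. Every window matched GRCh37, the build of the authors' alignment, at a single position, and the positions given here are on that build. DDIT4 is a protein coding gene of 2117 bases on chromosome 10 (chr10:74033678-74035794, plus strand). Its 250 upstream bases (chr10:74033432-74033681, plus strand) have 68.8% G and C, against a median of 58.0% over all windows of the table, and 26 CpG dinucleotides. None of the 5 motifs searched had a match in the DDIT4 window, so that no letter is in capitals.
DDIT4 upstream: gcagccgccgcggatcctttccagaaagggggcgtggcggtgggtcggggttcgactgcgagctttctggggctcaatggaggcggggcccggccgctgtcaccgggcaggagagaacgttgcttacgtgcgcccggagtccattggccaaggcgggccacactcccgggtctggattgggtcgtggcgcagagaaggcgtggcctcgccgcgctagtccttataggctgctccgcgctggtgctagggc

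The motifs were searched on both strands of the whole window. They were the core of the C/EBP-ATF composite element (TGATGNAA), the cyclic AMP response element (TGACGTCA), a C/EBP site (TTNNGNAAT), the core of the unfolded protein response element (TGACGTGG) and the ER stress response element (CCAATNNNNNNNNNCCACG). A member was counted if any of its windows held a match, whereas the shares over all genes are of single windows, so the units differ. The composite core was present in ATF3, CHAC1 and ASNS, and in 3.62% of the 35116 windows of all genes. In ATF3 it lay in the window of the start at chr1:212738749, and the window of the start at chr1:212788360 had no match. Starts of ATF3 without a window were not searched. The cyclic AMP response element was present in PPP1R15A and in 1.85% of all windows, and the ER stress response element in XBP1 and in 0.0769%. The C/EBP site, held by 11.0% of all windows, and the core of the unfolded protein response element, held by 0.729%, had no match in any member. ATF4, DDIT3, TRIB3 and SESN2 held none of the 5 motifs, as was so for DDIT4, and no matches overlapped each other. A match is a description of letters within this window and not a binding site, and sites farther from the start were not looked at. The 5 matches are printed along the strand of the gene, with the matched letters in capitals.
ASNS, 68 to 61 bases upstream (chr7:97501770-97501799, minus strand): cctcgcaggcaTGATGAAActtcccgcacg
CHAC1, 209 to 202 bases upstream (chr15:41245449-41245478, plus strand, match on the opposite strand): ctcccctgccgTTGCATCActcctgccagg
ATF3, 191 to 184 bases upstream (chr1:212738547-212738576, plus strand): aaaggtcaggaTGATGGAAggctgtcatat
PPP1R15A, 58 to 51 bases upstream (chr19:49375609-49375638, plus strand): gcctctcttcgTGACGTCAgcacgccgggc
XBP1, 52 to 34 bases upstream (chr22:29196586-29196614, minus strand): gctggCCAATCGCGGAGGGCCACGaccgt

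**Figure D1:**
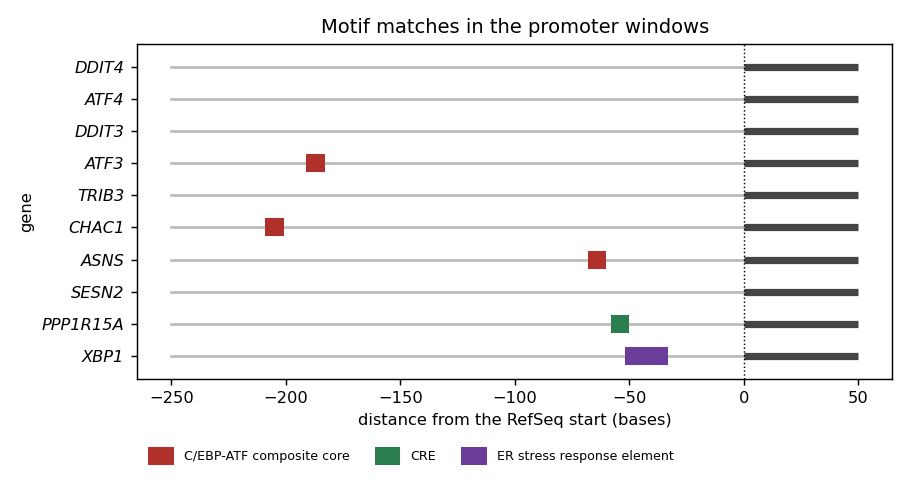
Position of each motif match in the RefSeq promoter windows of the 10 genes, as the distance in bases from the start (dotted line) that the window belongs to; the thin line is the upstream part, the thick line the 50 bases after the start, and colours name the motif (CRE, cyclic AMP response element). Matches were present in 5 genes, and DDIT4, ATF4, DDIT3, TRIB3 and SESN2 had none.

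DDIT4, also named REDD1, restrains the growth kinase complex mTORC1 through the TSC complex. Its mRNA stood at 168 FPKM in CTR and 126 in P30, against 9.90 in CEBPA. Wherever 3 values of a gene follow each other, they are FPKM in the order CTR, P30 and CEBPA. The CTR and P30 lines were both high for DDIT4 and the CEBPA line alone was low, with an FPKM ratio of CTR to CEBPA of 17.0 and of P30 to CEBPA of 12.7. On the log2(FPKM + 1) scale, on which all differences are given and which understates those of low genes, DDIT4 differed by -3.95 in CEBPA vs CTR, by -3.54 in CEBPA vs P30 and by -0.41 in P30 vs CTR. Among the 13673 genes with over 1 FPKM in CEBPA or CTR, only 4 rows were as low as DDIT4 or lower in CEBPA vs CTR, DDIT4 included. The other rows above it were the small RNAs MIR3661, snoU13 and SNORD46, each listed at 0 in CEBPA. Y_RNA, with -3.92 and also listed at 0 in CEBPA, and S100A1, with -3.47, came next.

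The position of DDIT4 was less extreme in P30 vs CTR, with 5.42% of 12395 genes as low or lower. By level, 3.84% of the 14444 genes listed once in every table were as high as DDIT4 or higher in CTR, 5.48% in P30 and 51.8% in CEBPA. The mRNA was thus among the abundant messages of CTR and P30 and near the middle of the genes in CEBPA.

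The 10 members were next compared by level within each group, which FPKM allow because they are per length. In CTR the order from the highest was ATF4, ASNS, DDIT4, PPP1R15A, XBP1, TRIB3, DDIT3, SESN2, ATF3 and CHAC1, from 351 to 6.90 FPKM. In P30 the order differed only in that DDIT4 stood before ASNS. In CEBPA it was ATF4, XBP1, TRIB3, DDIT3, SESN2, ASNS, PPP1R15A, ATF3, DDIT4 and CHAC1, from 179 to 6.29 FPKM. DDIT4 held rank 9 in CEBPA against rank 3 in CTR, and ASNS rank 6 against rank 2. With 1 pooled value per group, whether neighbours in these orders differ beyond their spread is not known. The members summed to 1015 FPKM in CTR and 866 in P30, against 488 in CEBPA, and DDIT4 made up 16.5%, 14.5% and 2.03% of these sums. The sums include DDIT4, which was chosen for its fall, and mostly follow the abundant ATF4, ASNS and DDIT4. They do not describe each member, since 3 members (ATF3, SESN2 and XBP1) were higher in CEBPA than in CTR.

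**Figure D2:**
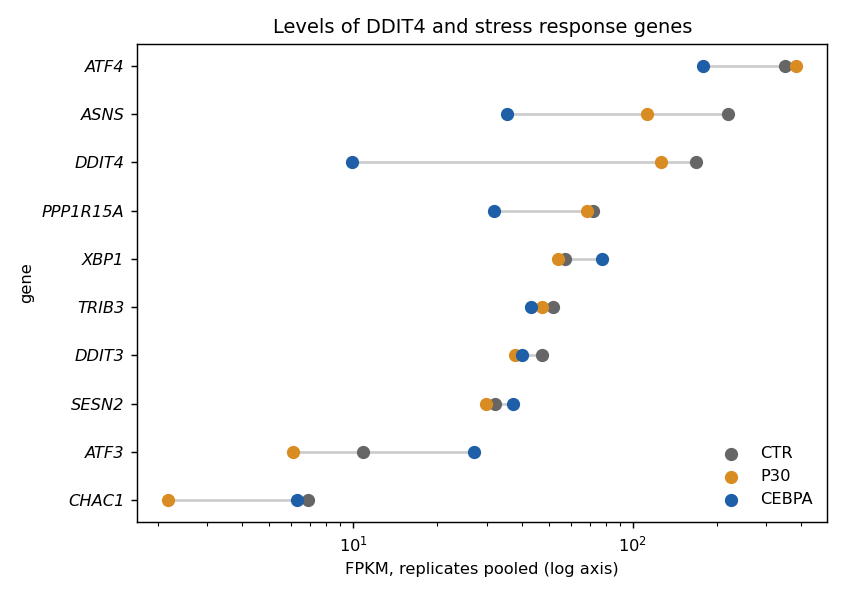
FPKM of the 10 genes in CTR (grey), P30 (orange) and CEBPA (blue) on a log axis, 1 point per group with the replicates pooled, and a line from the lowest to the highest group. The CEBPA point of DDIT4 lies at 9.90 FPKM, far left of its CTR and P30 points, while the 3 points of TRIB3, DDIT3 and SESN2 lie close together.

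ATF4, the transcription factor on which the response converges, had 351 FPKM in CTR and 383 in P30, against 179 in CEBPA. It was lower in CEBPA only, by an FPKM ratio of CTR to CEBPA of 1.96. The differences were -0.97 in CEBPA vs CTR, just short of the 2-fold limit of 1 on the log2 scale, 0.13 in P30 vs CTR and -1.10 in CEBPA vs P30. ATF4 is regulated mainly in translation, so its mRNA level does not give the amount of its protein.

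ASNS, asparagine synthetase and a classic target of ATF4, had 219 FPKM in CTR and 112 in P30, against 35.4 in CEBPA. Both lines with a transgene were low, with an FPKM ratio of CTR to P30 of 1.96 and of CTR to CEBPA of 6.19. The difference was -2.60 in CEBPA vs CTR, where 0.190% of genes were as low or lower, and -0.96 in P30 vs CTR, where 0.702% were. In CEBPA vs P30 it was -1.63. Gencode v44 lifted to GRCh37 holds a long noncoding RNA that overlaps the ASNS gene on the same strand. The authors used an older Gencode release. Shared reads could make the level of ASNS less certain, which was not tested.

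PPP1R15A encodes GADD34, the stress-induced subunit that directs a phosphatase to eIF2 and so ends the response. It had 71.8 FPKM in CTR and 68.4 in P30, against 31.8 in CEBPA. CTR and P30 were close and CEBPA lower, with differences of -1.15 in CEBPA vs CTR, -0.07 in P30 vs CTR and -1.08 in CEBPA vs P30.

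DDIT3 encodes CHOP, a C/EBP family protein that pairs with other C/EBP proteins and is linked to cell death under lasting stress. It had 47.2 FPKM in CTR and 38.0 in P30, against 40.3 in CEBPA, with differences of -0.22 in CEBPA vs CTR, against -0.31 in P30 vs CTR. TRIB3, a pseudokinase induced by ATF4 and CHOP that dampens both, had 51.7, 47.3 and 43.3 FPKM in CTR, P30 and CEBPA, with differences of -0.25 in CEBPA vs CTR, against -0.13 in P30 vs CTR. The widest FPKM ratio between groups was that of CTR to P30 for DDIT3, at 1.24, and of CTR to CEBPA for TRIB3, at 1.19, so that both genes were nearly level where ATF4 and ASNS were lower. The ends of the DDIT3 gene overlap genes on the opposite strand, of which MARS, the methionyl-tRNA synthetase, had 178 FPKM in CTR and 61.0 in CEBPA, while MIR616 and a further protein coding gene overlap it on the same strand. These overlaps are from Gencode v44, while the authors used an older release and strand-specific libraries. Whether reads shared with any of these genes affect the level of DDIT3 was not tested.

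ATF3, a stress-induced repressor of the ATF family, was the member with the opposite pattern. It had 10.8 FPKM in CTR and 6.09 in P30, against 27.0 in CEBPA. The CEBPA line was the highest and P30 the lowest, with differences of 1.25 in CEBPA vs CTR, -0.74 in P30 vs CTR and 1.98 in CEBPA vs P30. In CEBPA vs P30, 3.95% of genes were as high or higher, and in P30 vs CTR 1.40% were as low or lower.

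CHAC1, an enzyme that breaks down glutathione and a target of ATF4 and CHOP, was the least abundant member in every group. It had 6.90 FPKM in CTR and 2.19 in P30, against 6.29 in CEBPA, so that P30 alone was low. Its difference of -1.31 in P30 vs CTR was matched or exceeded by 0.282% of genes, whereas CEBPA vs CTR gave -0.12 and CEBPA vs P30 1.19. With a pseudocount of 0.1 in place of 1 the difference in P30 vs CTR was -1.61.

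SESN2, a sestrin that restrains mTORC1 when leucine is short, had 32.2 FPKM in CTR and 29.8 in P30, against 37.4 in CEBPA. XBP1, the transcription factor of the unfolded protein response whose mRNA is spliced by the sensor IRE1, had 57.0, 53.8 and 77.6 FPKM. Besides ATF3, these were the members with a higher value in CEBPA than in CTR, with differences of 0.21 for SESN2 and 0.44 for XBP1 in CEBPA vs CTR, and -0.11 and -0.08 in P30 vs CTR. The FPKM do not separate the spliced from the unspliced XBP1 mRNA.

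Counted together, 3 of the 10 members were at least 2-fold lower in CEBPA vs CTR (DDIT4, ASNS and PPP1R15A), where 6.92% of 13673 genes were, and 1 was at least 2-fold higher (ATF3), where 14.0% of genes were. DDIT4 is in this count because it was chosen by this contrast. Without it, 2 of 9 were lower, 1 of 9 higher and 6 under 2-fold, with a median difference of -0.22, against -0.01 over all genes. In CEBPA vs P30, 4 of 10 were at least 2-fold lower (DDIT4, ATF4, ASNS and PPP1R15A) and 2 higher (ATF3 and CHAC1), where 5.79% and 13.1% of 13569 genes were. DDIT4, chosen for its low CEBPA value, is in this count too. Without it, 3 of 9 were lower and 2 of 9 higher, with a median of 0.08, against -0.04 over all genes. In P30 vs CTR, 1 of 10 was at least 2-fold lower (CHAC1), where 0.613% of 12395 genes were, and 0 were higher, where 1.02% were. The median of the 9 was -0.13, against 0.02 over all genes. With a pseudocount of 0.1 the split of all genes in P30 vs CTR was 184 lower and 200 higher, against 76 and 126. The comparisons share groups, so their values stand side by side and are not independent of each other.

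**Figure D3:**
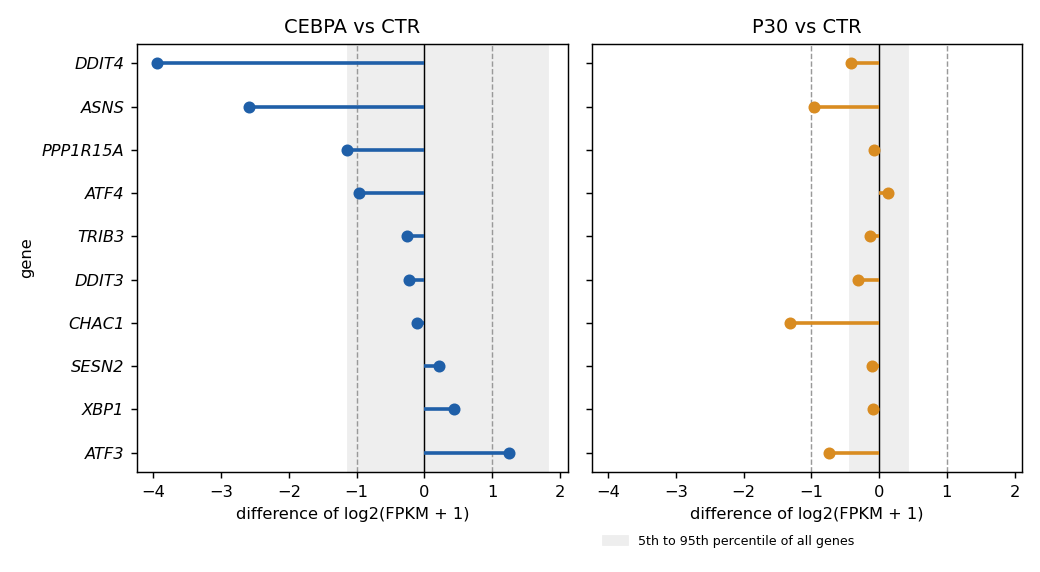
Difference of log2(FPKM + 1) for each of the 10 genes in CEBPA vs CTR (left) and P30 vs CTR (right); dashed lines mark a 2-fold difference and the grey band holds the 5th to the 95th percentile of all genes compared. DDIT4, ASNS and PPP1R15A lie left of the band in CEBPA vs CTR, and CHAC1, ASNS and ATF3 do so in P30 vs CTR.

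Depth, growth state and cell identity bear on all these values. The paper reports that doxycycline stopped proliferation of the CEBPA line and drove its granulocytic differentiation. Growth of the CTR and P30 lines was not affected. On depth, the paper gives a range of read pairs per sample, a similar percentage of alignment and a high correlation between replicates. The authors' FPKM hold no counts, so that the depth of each group cannot be read from them. In bulk samples fewer cells of a type and less RNA per cell cannot be told apart. Of 10 erythroid markers 7 had a single row, none at 0. They summed to 1786 FPKM in CTR and 1285 in P30, against 708 in CEBPA, with 6 of 7 at least 2-fold lower in CEBPA vs CTR. The globins HBG2, HBE1 and HBZ had no row or several, and are not in these sums. Of 6 granulocyte and monocyte markers 3 had a single row, none at 0, and summed to 505, 589 and 4162 FPKM. S100A8 alone made the CEBPA sum higher, with 0.551, 9.54 and 3731 FPKM, while CD68 was lower in CEBPA than in CTR, with 505, 580 and 430, and CD14 had 0.215, 0.228 and 1.10. The fibroblast markers with a single row summed to between 4.01 and 5.20 FPKM, and those of T and B cells to between 4.34 and 13.2 FPKM. Those of epithelial cells, which were EPCAM and KRT8, summed to between 115 and 251 FPKM. The part of the growth arrest, the lower erythroid markers and the higher S100A8 in the lower DDIT4 and ASNS levels of CEBPA was not tested.

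Genes with the pattern most like that of DDIT4 were sought among 13006 genes by the Euclidean distance of their differences of CEBPA and of P30 from CTR, over the 3 groups. The nearest was S100A1, a calcium-binding protein, at a distance of 0.49, with 56.4 FPKM in CTR and 44.0 in P30, against 4.17 in CEBPA. GALNT16 followed at 0.90, PTGS1, the constitutive cyclooxygenase, at 0.90, BCAM, the Lutheran blood group protein, at 0.92, and AF127936.3 at 0.92. The differences of the 5 ran from -3.47 to -3.04 in CEBPA vs CTR, while those in P30 vs CTR lay between -0.57 and -0.35. The search started from the difference by which DDIT4 was chosen, so that only other large falls could be near it. The other 9 members, of which the lowest had -2.60 in CEBPA vs CTR, were therefore not among them. Their absence does not show whether DDIT4 fell with the response.

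Paralogs of the members were then compared with the members themselves. In the Tribbles family TRIB3 was nearly level, while TRIB1 had 1.68 FPKM in CTR and 1.54 in P30, against 106 in CEBPA, and TRIB2 had 20.9, 27.3 and 74.1. TRIB1 and TRIB2 are known for promoting the degradation of C/EBPα. Among sestrins SESN2 was nearly level, SESN1 had 14.7, 15.3 and 75.4 FPKM in CTR, P30 and CEBPA, and SESN3 had 2.19, 2.15 and 4.74. CHAC2, the paralog of CHAC1, had 8.41, 8.48 and 30.6 FPKM. The constitutive eIF2 phosphatase subunit PPP1R15B, with 20.2, 16.9 and 18.8 FPKM, did not share the lower CEBPA level of PPP1R15A. ATF5, a relative of ATF4 and one of its targets, had 129, 82.1 and 25.6 FPKM, a pattern of steps like that of ASNS. Of the 8 listed paralogs and relatives with a single row, 4 were at least 2-fold higher in CEBPA vs CTR, where 14.0% of all genes were. A further 1 was at least 2-fold lower, where 6.92% were. The median was 1.30, and 0 passed 2-fold in P30 vs CTR.

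**Figure D4:**
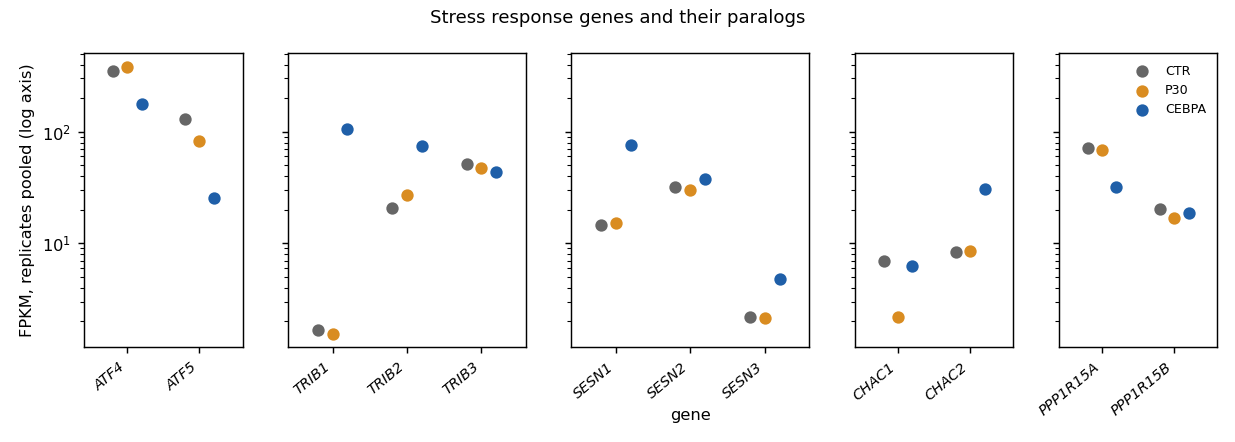
FPKM of 5 members and of their paralogs or relatives in CTR (grey), P30 (orange) and CEBPA (blue) on a log axis, 1 point per group with the replicates pooled. TRIB1, TRIB2, SESN1 and CHAC2 are highest in CEBPA, whereas TRIB3 and SESN2 are nearly level and ATF4, ATF5 and PPP1R15A are lowest in CEBPA.

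Upstream of ATF4, few of the genes that sense stress and control eIF2 passed 2-fold. Of 19 kinases, subunits and regulators, 0 were at least 2-fold lower in CEBPA vs CTR, where 6.92% of all genes were, and 1 was higher, where 14.0% were, with a median of -0.05. The 1 was EIF2B2, a subunit of the eIF2 exchange factor, with 17.1 FPKM in CTR and 16.9 in P30, against 35.8 in CEBPA. The heme-sensing kinase EIF2AK1 had 150, 141 and 80.2 FPKM, a difference of -0.90 in CEBPA vs CTR, and the amino acid-sensing kinase EIF2AK4 had 13.3, 11.7 and 21.5, a difference of 0.65. None of the 19 passed 2-fold in either direction in P30 vs CTR.

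Downstream of ATF4 the amino acid genes were compared first. Of 11 enzymes of amino acid synthesis and folate metabolism, 4 were at least 2-fold lower in CEBPA vs CTR and 0 higher, with a median of -0.73, against 6.92% lower and 14.0% higher over all genes. GPT2, an alanine aminotransferase, had 7.02 FPKM in CTR and 6.16 in P30, against 1.45 in CEBPA. PCK2, the mitochondrial enzyme that makes phosphoenolpyruvate, had 58.2, 52.6 and 18.9 FPKM, and MTHFD2 of mitochondrial folate metabolism 158, 171 and 66.1. PHGDH, the first enzyme of serine synthesis, stood lower in both lines with a transgene, at 132, 83.7 and 51.5 FPKM. CTH, which makes cysteine, had another pattern, with 28.4 FPKM in CTR and 13.5 in P30, against 42.4 in CEBPA, and a difference of -1.02 in P30 vs CTR, the only one of the list past 2-fold there.

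Of 11 amino acid transporters, 5 were at least 2-fold lower in CEBPA vs CTR, where 6.92% of all genes were, and 2 were higher, a share near the 14.0% of all genes. The median was -0.85. In P30 vs CTR 0 passed 2-fold, where only 0.613% of all genes were lower and 1.02% higher. SLC6A9, a glycine transporter, had 26.2 FPKM in CTR and 21.5 in P30, against 2.61 in CEBPA. SLC1A5, a glutamine carrier, had 221, 212 and 65.2 FPKM, and SLC43A1, a carrier of large neutral amino acids, had 22.2, 23.9 and 6.87. SLC7A5 and SLC1A4 were the other transporters lower by at least 2-fold. The cystine carrier SLC7A11 was higher in CEBPA, with 8.88, 6.74 and 26.2 FPKM, as was SLC7A3, with 1.72, 0.886 and 5.35.

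Of 18 other targets of ATF4 and CHOP, 7 were at least 2-fold lower in CEBPA vs CTR, where 6.92% of all genes were, with a median of -0.31. A further 3 were higher, a share near the 14.0% of all genes. Besides ATF5, the most negative differences were those of STC2, a secreted stanniocalcin, with 5.03 FPKM in CTR against 0.747 in CEBPA, and of ADM2, a peptide hormone, with 3.50 against 0.340. Higher were TNFRSF10B, the death receptor DR5, with 10.9, 10.9 and 38.4 FPKM in CTR, P30 and CEBPA, NUPR1 with 1.09, 0.185 and 4.55, and the ER oxidase ERO1L with 10.1, 13.4 and 25.1. EIF4EBP1, a repressor of translation that mTORC1 phosphorylates, had 115, 134 and 39.6 FPKM. In P30 vs CTR 1 of the 18 was at least 2-fold lower, again CTH, and 0 were higher. NUPR1 and STC2 also passed 2-fold lower there with a pseudocount of 0.1.

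Few genes of the ER branch passed 2-fold. Of 25 ER chaperones, degradation factors and sensors, 1 was at least 2-fold higher and 0 lower in CEBPA vs CTR, against 14.0% and 6.92% of all genes, with a median of 0.19. The 1 was DNAJB9, a cochaperone and a known target of XBP1, with 9.33 FPKM in CTR and 9.35 in P30, against 30.4 in CEBPA. HSPA5, the main ER chaperone BiP, had 117, 112 and 161 FPKM, a difference of 0.47 in CEBPA vs CTR. Of the 25, 0 passed 2-fold in P30 vs CTR. In CEBPA vs P30, DERL3 of ER-associated degradation was the only one at least 2-fold lower, with 6.54, 7.34 and 2.99 FPKM. With a pseudocount of 0.1 it also passed 2-fold lower in CEBPA vs CTR.

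Around mTORC1, on which DDIT4 and the sestrins act, 3 of 19 genes were at least 2-fold lower and 2 higher in CEBPA vs CTR, with a median of -0.14. Over all genes 6.92% were lower and 14.0% higher, so that the count of higher genes was near that of any genes. Lower were NPRL3, a subunit of an amino acid-dependent inhibitor of mTORC1, with 58.4 FPKM in CTR and 47.5 in P30, against 20.8 in CEBPA, the thioredoxin-binding protein TXNIP with 223, 239 and 91.1, and the mTOR subunit MLST8 with 52.1, 51.4 and 22.2. Higher were SESN1 and DEPTOR, an inhibitor of mTOR, with 0.138, 0.156 and 2.72 FPKM. TSC2, through which DDIT4 acts, had 24.1, 24.5 and 17.1 FPKM, under 2-fold. In P30 vs CTR 0 of the 18 genes compared passed 2-fold.

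**Figure D5:**
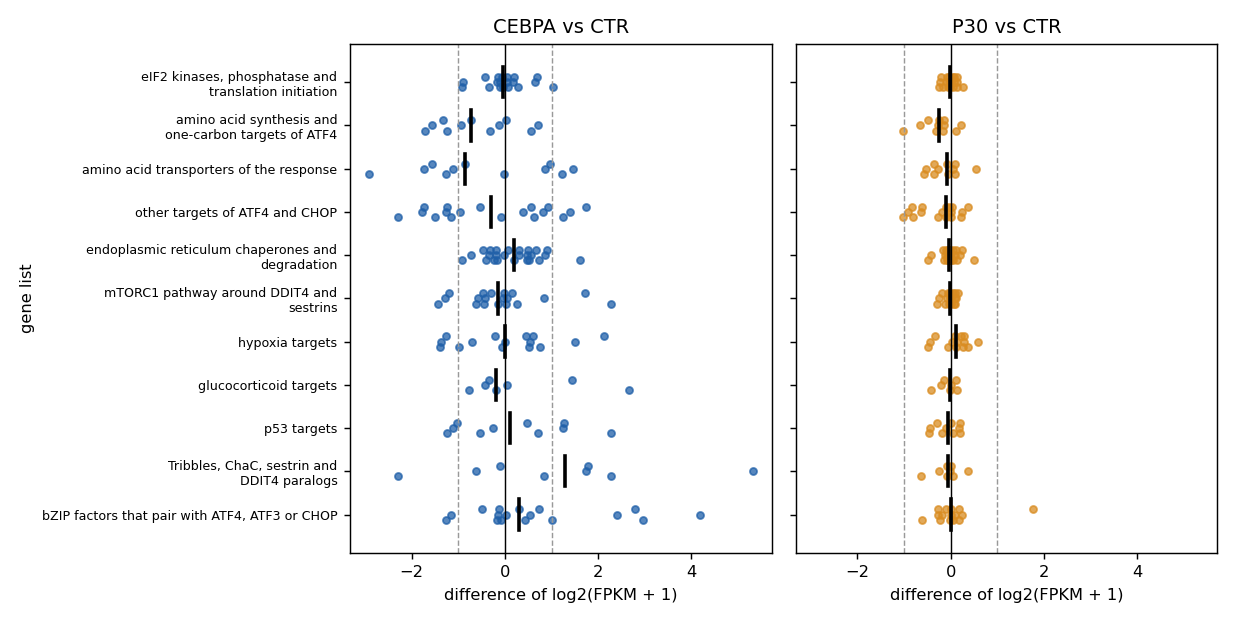
Difference of log2(FPKM + 1) for the genes of each list around the response in CEBPA vs CTR (left) and P30 vs CTR (right), 1 point per gene over 1 FPKM in either group; black bars are the medians and dashed lines mark a 2-fold difference. The medians of the amino acid lists lie at -0.73 and -0.85 in CEBPA vs CTR, and at -0.26 and -0.09 in P30 vs CTR. Nearly all points of P30 vs CTR lie inside the dashed lines. All genes spread less there, with 5th and 95th percentiles of -0.43 and 0.42, so that the 2-fold limit passes over smaller differences.

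Factors with a basic leucine zipper, the family of ATF4, ATF3 and CHOP, were compared as their possible partners. Of 17, 4 were at least 2-fold higher and 2 lower in CEBPA vs CTR, against 14.0% and 6.92% of all genes, with a median of 0.30. FOSL2 had 0.350 FPKM in CTR and 0.861 in P30, against 23.6 in CEBPA, and FOS had 2.21, 1.66 and 21.2. CEBPE had 0.560, 4.31 and 11.2 FPKM and was the only one at least 2-fold higher in P30 vs CTR, by 1.77, while BATF3 had 0.290, 0.584 and 5.81. Lower were CEBPB, with 29.1, 18.7 and 11.6 FPKM, and JDP2, a repressor, with 4.04, 3.71 and 1.26. CEBPG, a frequent partner of ATF4, had 19.7, 16.1 and 18.5 FPKM.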

How the data were processed

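RNA was sequenced from 2 replicates each of CTR, CEBPA and P30 cells. The paper describes 2 sequencing runs on different Illumina instruments, with the libraries of the second made at an outside institute. The pooled FPKM do not separate the runs. Alignment by the authors was to hg19 (GRCh37) with TopHat, transcripts came from Cufflinks with Gencode models, FPKM were estimated by Cuffdiff, and the deposited tables give 1 FPKM per gene and group for each of 3 pairs. The submitters' processing notes name CASAVA 1.4, TopHat2 2.0 and Cuffdiff. The normalization setting and the rule for listing rows are not given in the sources used here. The paper reports depth as a range over the samples, and these values do not give it for each group. No per-sample value column was left out (0).

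Differences of log2(FPKM + 1) were computed for genes over 1 FPKM in either group, and 2-fold means at least 1 on that scale. Symbols with several rows were left out of the lists. The members and the lists were chosen with earlier results of these data known. The genes named are the members, the list genes past 2-fold (at most 3 each way per list and pair), the 5 nearest to DDIT4 and the 5 largest falls. Other list genes were named after their values were seen. Alternatives were a pseudocount of 0.1, median centring, no filter or 5 FPKM, summed rows, and genes in all 3 tables. The code was tested on simulated data. Gene positions are from Gencode v44 lifted to GRCh37, and promoter sequences from RefSeq. Python 3.11.15, numpy 2.4.6, pandas 2.3.3 and matplotlib 3.10.9 were used.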

Additional observations from a re-analysis of the deposited data

How the results depend on the processing

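No paired analysis was possible because replicates were pooled into 1 value in every deposited column, and leaving out a replicate could not be run for the same reason. Without replicate error, a log2 value counted as moved when it changed by over 0.20, the spread of P30 vs CTR across genes, a count if it differed by over 1.5 times, and a share of promoters if it lay outside the 95% Wilson interval. Among 1685 values computed again, 73 moved. None of the values past 2-fold changed sign (0), but 13 smaller ones did, of which 10 moved by less than 0.20, the member median of CEBPA vs P30 among them (-0.02, and 0.02 when centred). The other 3 were medians that turned at 5 FPKM, those of the glucocorticoid list in both CEBPA comparisons and that of the p53 list in CEBPA vs CTR. No member crossed the 2-fold limit in any pair under the 6 alternatives, and DDIT4 ranged from -4.07 to -3.95 in CEBPA vs CTR, from -3.66 to -3.51 in CEBPA vs P30 and from -0.43 to -0.41 in P30 vs CTR. CHAC1 was the only member whose difference moved, in P30 vs CTR and CEBPA vs P30 with a pseudocount of 0.1.

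With that pseudocount P30 vs CTR had 184 genes lower and 200 higher by 2-fold, against 76 and 126, and among other targets of ATF4 and CHOP 5 rather than 3 were higher in CEBPA vs CTR and 3 rather than 1 lower in P30 vs CTR. The ER and the glucocorticoid list then had 1 gene rather than 0 lower in CEBPA vs CTR. With a filter at 5 FPKM 1216 genes were higher in CEBPA vs CTR against 1921, 1080 in CEBPA vs P30 against 1780, and 81 in P30 vs CTR against 126. The medians at 5 FPKM were 0.034 (main value -0.20) and 0.20 (-0.05) for glucocorticoid targets, and 1.75 (1.30) and 1.41 (1.14) for paralogs, in CEBPA vs CTR and CEBPA vs P30. For p53 targets in CEBPA vs CTR the median was -0.27 at 5 FPKM and 0.47 with no filter (0.10), and in CEBPA vs P30 it was -0.42 for mTORC1 genes (-0.08) and 0.42 for leucine zipper factors (0.21). When a row in all 3 tables was required, 1181 genes were higher in CEBPA vs P30, and the mTORC1 and hypoxia lists had 1 gene rather than 2 higher in CEBPA vs CTR. Among promoters of genes over 1 FPKM only, 1.98% held the composite core, 2.88% the cyclic AMP response element, 6.89% the C/EBP site, 0.923% the core of the unfolded protein response element and 0.125% the ER stress response element. Filters change the genes compared by construction, and the cause of the other moves was not tested.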

Other observations

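DDIT4 is also known as a target of hypoxia, of glucocorticoids and of p53, and lists of such targets were compared for that reason. Of 15 hypoxia targets compared in CEBPA vs CTR, 3 were at least 2-fold lower, where 6.92% of all genes were, and 2 higher, a share near the 14.0% of all genes, with a median of 0.00. Lower were SLC2A1, the glucose carrier GLUT1, with 69.9 FPKM in CTR and 49.7 in P30, against 26.2 in CEBPA, the mitophagy receptor BNIP3L with 70.6, 86.2 and 26.5, and P4HA2, a collagen prolyl hydroxylase, with 27.0, 21.4 and 10.6. Higher were EGLN1, an oxygen-sensing hydroxylase, with 22.2, 27.3 and 64.7 FPKM and the peptide ADM with 0.123, 0.155 and 3.87. VEGFA had 67.4, 74.6 and 41.2 FPKM, under 2-fold. In P30 vs CTR 0 of 14 hypoxia targets passed 2-fold.

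Of 7 glucocorticoid targets 2 were at least 2-fold higher and 0 lower in CEBPA vs CTR, against 14.0% and 6.92% of all genes. The median was -0.20 but 0.034 with a filter at 5 FPKM, so that its sign depends on the filter. With a pseudocount of 0.1, TSC22D3, which had 2.49, 2.78 and 1.06 FPKM, was at least 2-fold lower. The 2 higher genes were ERRFI1 and SGK1. ERRFI1, an inhibitor of the EGF receptor, had 2.61 FPKM in CTR and 2.12 in P30, against 21.9 in CEBPA. The kinase SGK1 had 4.59, 4.63 and 14.1. FKBP5 had 54.5, 53.7 and 40.3 FPKM. Of 10 p53 targets 3 were higher and 3 lower, against 14.0% and 6.92% of all genes. This list shares SESN1 with the sestrins, and BBC3 and GADD45A with the other targets of ATF4 and CHOP. The median of 0.10 was -0.27 with a filter at 5 FPKM and 0.47 with none, so that it too has no settled sign. Higher beside SESN1 were RRM2B, a ribonucleotide reductase subunit, with 13.2, 15.4 and 33.0 FPKM, and TP53INP1 with 7.03, 8.25 and 18.0. Lower were BBC3, the gene of PUMA, with 9.98, 9.22 and 3.67, MDM2 with 22.7, 16.4 and 9.86, and BTG2 with 48.0, 34.5 and 22.9.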
